A study of Mus musculus with 6 samples.

Results

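Interferon-response and MHC class I genes were followed in cultured brown (BAT) and white (WAT) adipose cells of the mouse. The set holds 33 genes, chosen by symbol from the deposited gene expression table, in which each has 1 entry among 34465 symbols. Of these, 28 are genes that interferons induce or that carry the interferon signal, and 5 belong to MHC class I antigen presentation. They were put together because BAT started above WAT on day 0 and ended below it, so this reversal is described here and not tested. Values are FPKM, fragments scaled to exon length and to the mapped fragments of the library. Differences are on the log2(FPKM + 1) scale, where 1 corresponds to 2-fold and the change of low genes is understated. Genes that reached an FPKM of 1 in any library were tested (14413 genes), among them 32 of the 33 members. *Oas3* did not pass, as its highest value was 0.535 FPKM.

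BAT cells came from the interscapular depot and WAT cells from the inguinal subcutaneous depot of young BL6 mice of about weaning age. The study harvested the fat of several mice and cultured the preadipocytes of the stromal vascular fraction to confluence, so the cells are primary and mixed, and carry no transgene. Day 0 is before induction. Both cell types were then induced with insulin, dexamethasone, 3-isobutyl-1-methylxanthine and rosiglitazone, moved to maintenance medium, and harvested on days 4 and 6. No interferon, virus or other immune stimulus is part of the stated treatment, and the cells treated with norepinephrine were not analysed here. Each cell type and day had a single library (6 libraries), and a difference between 2 of them therefore has no replicate check. In bulk RNA, fewer cells of a type and less RNA per cell cannot be told apart.

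Judged from the spacing of low FPKM values, 5 libraries held approximately 16.7 to 21.0 M fragments and WAT day 0 held 8.90 M. The markers of the labelled cell types were present in part. All 8 adipocyte markers rose from day 0 to the later days (adjusted p under 0.05 in limma), and *Adipoq*, which encodes adiponectin, stood at 59.0, 823 and 1174 FPKM in BAT and at 123, 934 and 889 FPKM in WAT. The brown marker *Zic1* lay between 2.39 and 14.5 FPKM in BAT and at no more than 0.0852 in WAT, while the white marker *Hoxc10* lay between 14.9 and 26.2 FPKM in WAT and at no more than 0.0879 in BAT. *Ucp1* (0, 9.93 and 3.65 FPKM in BAT, 1.49, 0.477 and 0.175 in WAT) and *Cidea* (0, 283.6 and 114.9 FPKM in BAT, 2.43, 34.1 and 9.84 in WAT) were higher in BAT on days 4 and 6 but not on day 0, and the white marker *Lep* was higher in BAT on day 6 (4.92 against 1.20 FPKM). On day 0 the difference between BAT and WAT followed transcript length, with a Spearman correlation of 0.54 across 12695 protein-coding genes, which are not independent replicates. The median difference ran from -0.93 in the decile of shortest genes to 1.01 in that of the longest. The correlation was 0.27 on day 4 and -0.06 on day 6. Within BAT, the change from day 0 had a correlation with length of -0.36 on day 4 and -0.45 on day 6. Within WAT the same correlations were -0.05 and -0.04, so the trend lay mostly with the BAT day 0 library. That library also had the lowest summed FPKM of the 6, and the cause of the trend was not tested.

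Type I interferons bind the receptor made of IFNAR1 and IFNAR2, whose kinases JAK1 and TYK2 activate STAT2. With IRF9 it is part of the complex ISGF3, which binds the interferon-stimulated response element (ISRE) in promoters and switches on many genes that block viral entry, translation and replication. Interferon gamma acts through the GAS element and raises guanylate-binding proteins, IRF1 and MHC class I. Fat cells carry interferon receptors and express many of these genes at a low level without infection.

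The response elements were looked up as a sequence feature the members could share. They were not themselves a rule for choosing members. Most members were chosen as genes that interferons induce, however, so the share with an ISRE is not independent of that choice. The ISRE core was searched as GAAA, any 2 bases and GAAA again, and the GAS element as TTC, any 3 bases and GAA, both strands, in windows from 250 bases before to 50 bases after each gene's start (RefSeq, GRCm38.p6). A window was found for 27 of the 33 members, and a gene counted if any of its windows had a match. In 17 of the 27 a window's start was that of the RefSeq gene. In the others it was not, and all distances are from the start used for the window. The windows held an ISRE core in 15 of these 27 (55.6%), against 1079 of 27025 genes (3.99%), and a GAS element in 6 (22.2%), against 2582 (9.55%). A match is a description of these letters and is not evidence of binding. The 10 stretches that follow, of 80 bases each, come from 10 of the 15 windows and have the ISRE cores in capitals. A core on the other strand reads TTTC, 2 bases and TTTC. Shown are members with at least 10 FPKM in a library and a core that ends before the gene's start, with *Oas1a* added by name. Coordinates are those of GRCm38.p6, and each sequence reads in the direction of its gene.
Ifit1 (chr19:34640759-34640838, plus strand): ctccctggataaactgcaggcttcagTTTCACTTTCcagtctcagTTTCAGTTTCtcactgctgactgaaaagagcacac
Ifit3 (chr19:34583355-34583434, plus strand): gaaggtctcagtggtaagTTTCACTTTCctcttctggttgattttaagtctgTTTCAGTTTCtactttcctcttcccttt
Isg15 (chr4:156200846-156200925, minus strand): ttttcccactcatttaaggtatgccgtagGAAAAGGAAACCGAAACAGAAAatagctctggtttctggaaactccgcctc
Bst2 (chr8:71537555-71537634, minus strand): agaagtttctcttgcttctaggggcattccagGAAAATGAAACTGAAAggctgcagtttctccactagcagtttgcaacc
Oas1a (chr5:120907526-120907605, minus strand): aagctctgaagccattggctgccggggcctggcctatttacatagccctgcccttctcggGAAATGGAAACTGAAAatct
Stat2 (chr10:128270248-128270327, plus strand): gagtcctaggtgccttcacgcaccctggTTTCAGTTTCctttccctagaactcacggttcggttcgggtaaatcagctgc
Gbp2 (chr3:142620569-142620648, plus strand): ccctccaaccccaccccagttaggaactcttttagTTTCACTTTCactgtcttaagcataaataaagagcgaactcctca
Gbp3 (chr3:142559964-142560043, plus strand): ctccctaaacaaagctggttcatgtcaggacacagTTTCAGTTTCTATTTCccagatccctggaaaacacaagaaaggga
B2m (chr2:122147513-122147592, plus strand): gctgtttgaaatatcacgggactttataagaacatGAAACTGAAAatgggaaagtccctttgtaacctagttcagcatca
H2-T23 (chr17:36032781-36032860, minus strand): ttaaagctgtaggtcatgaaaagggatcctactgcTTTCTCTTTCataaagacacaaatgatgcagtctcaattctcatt
The copies stood close to each other in several promoters. *Isg15* had 3 overlapping cores, the first starting 78 bases before the gene's start, and *Bst2*, *Oas1a* and *Gbp3* had 2 overlapping cores each, starting 130, 20 and 45 bases before it. In *Ifit1* the 2 cores started 104 and 85 bases before the start, and in *Ifit3* 156 and 122 bases before it. Among the MHC class I genes, *B2m* had 1 core, 139 bases before its start, and *H2-T23* had 1 core, 124 bases before it.

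The members showed 1 pattern across the 6 libraries in common. On day 0, 29 of the 32 tested members were higher in BAT than in WAT, where 58.1% of all tested genes were. On day 4, 31 of 32 were lower in BAT (36.3% of all tested genes), and on day 6 all 32 tested members were lower in BAT (60.6%). The count on day 4 lies furthest from its background. BAT above WAT on day 0 and below it on day 6 was seen in 29 members (37.6% of all tested genes), and in 28 of them BAT was also below WAT on day 4 (10.8%). The first of these counts was 25 under median-ratio scaling, 31 under TPM scaling and 30 with the length trend removed, and it was 25 of the 27 members with at least 20 fragments in every library. The exceptions on day 0 were *Bst2*, *Ifi35* and *Oasl1*, which were lower in BAT on every day, although *Bst2* and *Ifi35* were higher in BAT on day 0 under TPM scaling (0.29 and 0.23) and with the length trend removed (0.74 and 0.24).

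The median difference of the members, BAT minus WAT, was 1.04 on day 0, -0.54 on day 4 and -0.92 on day 6, where the median of all tested genes was 0.21, 0.13 and -0.09. By the 2-fold rule, 16 members were higher in BAT on day 0 (20.7% of all tested genes) and 1, *Oasl1*, was lower (13%). None was higher on day 4 (3.51%) or day 6 (1.8%) in this comparison of single libraries, which has no test. Lower in BAT by 2-fold were 5 members on day 4 (3.08%) and 14 on day 6 (4.09%). With each day's own trend with transcript length removed, the median differences were 1.19, -0.53 and -0.90.

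**Figure D1:**
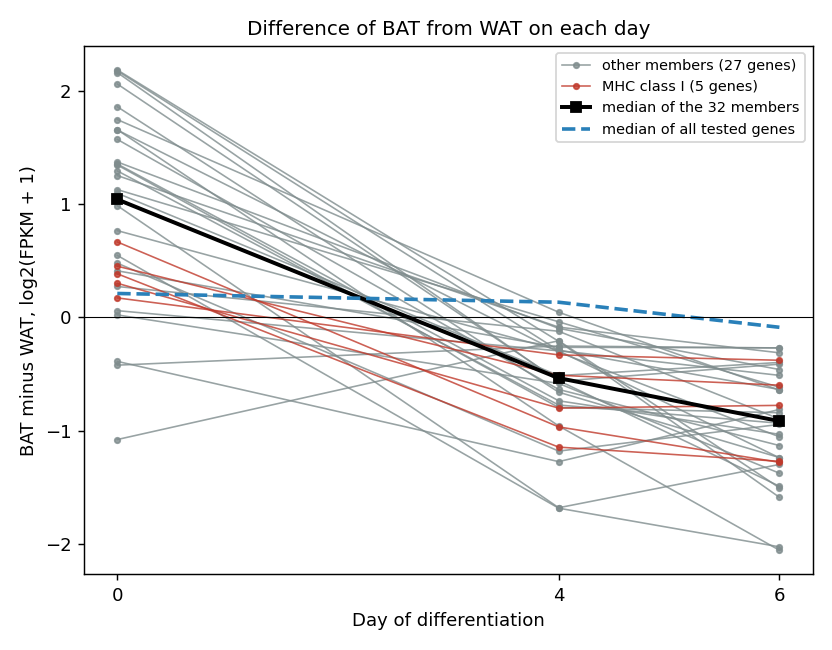
BAT minus WAT on the log2(FPKM + 1) scale (vertical axis) on days 0, 4 and 6 (horizontal axis) for each of the 32 tested members, with MHC class I genes in red and 1 library per cell type and day. The median of the members (black squares) passes from 1.04 to -0.54 and -0.92, while the median of all tested genes (dashed) stays between -0.09 and 0.21.

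Within each cell type the members took different courses. In BAT, 22 were lower by 2-fold on day 4 than on day 0 (23.2% of all tested genes) and 15 on day 6 (25.3%), with medians of -1.75 and -0.89 (all tested genes -0.16 and -0.21). The day 6 values moved with the scaling, to 9 members and a median of -0.57 under median-ratio scaling and to 23 members and -1.56 under TPM. With the length trend removed, the BAT medians were -1.65 on day 4 and -1.08 on day 6. In WAT, 3 were higher and 2 lower by 2-fold on day 4 (15% and 19%), while 19 were higher and 0 lower on day 6 (18.5% and 14%; single libraries, no test). The WAT medians were -0.04 on day 4 and 1.21 on day 6 (all tested genes -0.09 and 0.10). The sign of the WAT median on day 4 turned under TPM (0.05) and median-ratio scaling (0.08).

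Between days 4 and 6 the members were higher in both cell types. In BAT 31 of 32 were higher on day 6 than on day 4 (45.1% of all tested genes) and 6 by 2-fold (3%), and in WAT 31 of 32 were higher (69.6%) and 17 by 2-fold (4.42%), with *Oas2* as the exception in both. The medians were 0.56 in BAT and 1.05 in WAT. BAT was lower on day 4 than on day 0 and then higher on day 6 in 29 members (28.4%), all but *Ifi35*, *Oas2* and *H2-K1*. The library with the lowest value was BAT day 4 in 21 members (15.4%), and the highest was BAT day 0 in 16 (36.4%) and WAT day 6 in 15 (11.1%). *Bst2* was highest in WAT on day 0.

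Few of these differences could be tested. The limma model had terms for day and for cell type, so days stand in for replicates and the residual also holds any response that differs between BAT and WAT. Against day 0, 1 of 32 members fell on days 4 and 6 (10.6% of all tested genes) and 0 rose (11.3%). The one that fell was *Oas1a*, by 1.40 on the log2 scale (SE 0.39, limma adjusted p = 0.049). It was lost when BAT day 0, BAT day 4, BAT day 6 or WAT day 4 was left out, with limma adjusted p from 0.0361 to 0.259 over the 6 libraries left out in turn. At an unadjusted p under 0.05, 4 members were lower (19.4%), namely *Bst2*, *Xaf1*, *Oas1a* and *Irf9*, and 1, *H2-K1*, was higher (17.1%). The contrast against day 0 averages BAT and WAT, and from day 0 to day 6 BAT fell while WAT rose in 25 members. The members were grouped for a reversal between BAT and WAT, so opposed changes cancel in part and enlarge the residual. The low count therefore does not show that the members changed little.

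The count changed with the libraries in the fit. Without WAT day 0 the only day 0 library is BAT, and without BAT day 0 it is WAT, the shallowest library. The members were grouped by their day 0 difference. Calls from these fits would restate that choice and are not counted here. The change of *Oas1a* was -1.9 without WAT day 0 and -0.90 without BAT day 0. With BAT day 4, BAT day 6 or WAT day 4 left out, 0 were called. Of all tested genes, 2.05% rose and 0.992% fell without BAT day 4 and 2.21% and 1.19% without WAT day 4. Without BAT day 6 the shares were 6.7% and 5.06%. Fewer genes of any kind passed in these fits, so a call lost there is not particular to its gene. BAT against WAT across the days gave 0 members in limma, and 0% of all tested genes passed in either direction. At an unadjusted p under 0.05, 2 were lower (*Bst2* and *Oasl1*, 3.58%) and 0 higher (2.07%). That contrast averages the days, and the members were grouped because their difference changes sign between days. It therefore largely cancels for them by construction, while *Bst2* and *Oasl1* were lower in BAT on every day. Day 6 against day 4 also gave 0 members and 0% of all tested genes, with 5 higher (*Ifit3*, *Isg15*, *Bst2*, *Xaf1* and *Gbp2*, 2.52%) and 0 lower (1.37%) at an unadjusted p under 0.05.

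The antiviral effectors of the *Ifit* family bind foreign RNA and stop its translation. *Ifit2*, *Ifit3* and *Ifit1* lie in this order on chromosome 19 (mm9, from 34625184 to 34724499), all on the plus strand. *Ifit1*, which recognises RNA that lacks a methylated cap, stood at 11.6, 1.24 and 4.81 FPKM in BAT (days 0, 4 and 6, the order used throughout) and at 2.03, 2.30 and 15.3 FPKM in WAT. BAT was thus the higher by 5.74-fold on day 0, and WAT by 3.19-fold on day 6. *Ifit3*, a partner that stabilises IFIT1, stood at 22.4, 1.51 and 10.4 FPKM in BAT and at 15.0, 7.06 and 45.2 FPKM in WAT. WAT day 6 was the highest library for both and BAT day 4 the lowest, where *Ifit1* rested on approximately 60.7 and *Ifit3* on 46.9 fragments. Of the 100-base stretches of *Ifit3*, 31.7% also occur in other genes, most of all in I830012O16Rik, so reads may have been split between them. That neighbouring copy stood at 4.39, 0.215 and 1.97 FPKM in BAT and 1.38, 2.05 and 10.1 FPKM in WAT. *Ifit2* stayed under 10 FPKM (0.497 to 7.05).

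**Figure D2:**
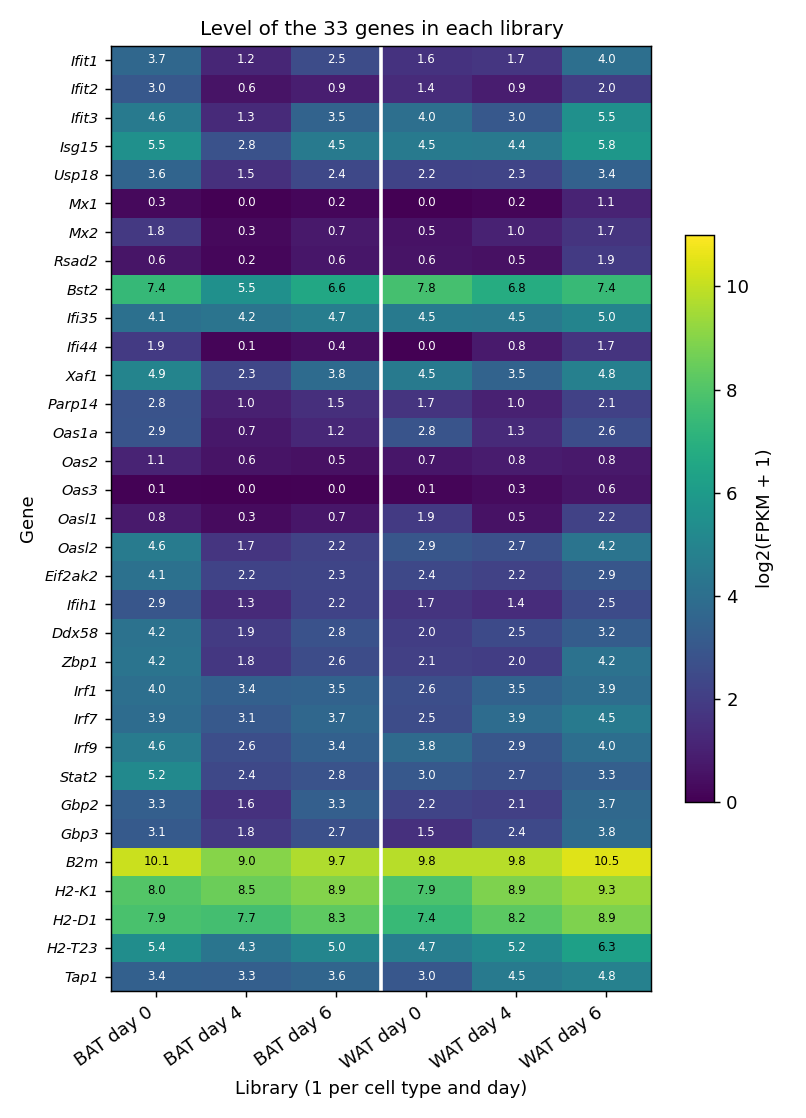
Level of each of the 33 genes as log2(FPKM + 1) (colour and printed value) in the 6 libraries (columns, BAT left and WAT right), with genes in rows ordered by role. The BAT day 4 column is the darkest for most interferon-induced genes, and *B2m* has the highest levels, from 9.0 to 10.5.

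ISG15 is a ubiquitin-like protein that is attached to other proteins, and USP18 removes it and also dampens the type I receptor. *Isg15* stood at 45.1, 5.74 and 22.2 FPKM in BAT and at 22.3, 20.6 and 56.0 FPKM in WAT, a difference of 0.99 on day 0, -1.68 on day 4 and -1.30 on day 6. WAT held its day 0 level to day 4 while BAT was lower by 2.78 on the log2 scale. *Usp18* stood at 10.8, 1.88 and 4.27 FPKM in BAT and at 3.63, 3.80 and 9.76 FPKM in WAT. As for *Isg15*, BAT was highest on day 0 and WAT on day 6.

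Not every effector shared the pattern. *Bst2*, which encodes tetherin, the membrane protein that holds budding viruses, was the most abundant of the 28 interferon-induced members. It stood at 165.9, 45.0 and 96.1 FPKM in BAT and at 217.5, 110.2 and 169.5 FPKM in WAT, so both cell types were lowest on day 4 and BAT was lower on each day. *Ifi35* stood at 15.7, 17.5 and 24.7 FPKM in BAT and at 21.3, 21.1 and 29.9 FPKM in WAT, so that its highest library was 1.91 times its lowest. *Xaf1*, a gene of the cell death machinery, stood at 29.9, 4.01 and 13.3 FPKM in BAT and at 21.2, 10.4 and 26.5 FPKM in WAT, with day 4 lowest in both.

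The remaining effectors were of lower abundance. *Mx1* and *Mx2*, the dynamin-like GTPases that trap viral particles, and *Rsad2*, which encodes viperin, were at 0 to 1.13, 0.203 to 2.53 and 0.140 to 2.69 FPKM. *Ifi44* was listed at 0 in WAT on day 0 and reached 2.63 FPKM in BAT on that day, and *Parp14*, an ADP-ribosyltransferase, ranged from 0.934 to 5.96 FPKM. *Mx1*, *Mx2*, *Rsad2*, *Ifi44* and *Oasl1* had fewer than 20 fragments in at least 1 library, so their differences rest on little RNA. Among the 27 members with at least 20 fragments in every library, the median of WAT on day 4 against day 0 was -0.07, and those of the other comparisons moved by less than 1.5 times. *Rsad2* was at nearly one level in both cell types on day 0 (a difference of 0.06, or -0.04 by median-ratio scaling and -0.33 with the length trend removed).

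The oligoadenylate synthetases make the messenger that activates RNase L, and *Eif2ak2* encodes PKR, the kinase that halts translation on double-stranded RNA. *Oasl2* stood at 23.1, 2.29 and 3.52 FPKM in BAT and at 6.63, 5.39 and 17.8 FPKM in WAT. Its difference of -2.06 on day 6 was the largest of the 32 members on that day. *Eif2ak2* stood at 16.4, 3.64 and 3.94 FPKM in BAT and at 4.20, 3.496 and 6.70 FPKM in WAT. It alone was not lower in BAT on day 4, with a difference of 0.05 that was -0.12 under median-ratio scaling.

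*Oas1a*, the member called in limma, stood at 6.30, 0.642 and 1.32 FPKM in BAT and at 6.19, 1.46 and 5.01 FPKM in WAT. BAT and WAT were at one level on day 0, with a difference of 0.02, and BAT was lower by day 6 (-1.38). The day 0 difference of *Oas1a* was -0.24 under median-ratio scaling and 0.32 with the length trend removed. Of its 100-base stretches, 40.5% also occur in other genes, most of all in *Oas1g*, so its value is uncertain where reads were split. *Oas1g*, a neighbour on chromosome 5, stood at 3.31, 0.136 and 0.651 FPKM in BAT and 3.70, 0.890 and 1.56 FPKM in WAT. *Oas2* (0.408 to 1.12 FPKM) and *Oas3* (0.0110 to 0.535 FPKM) were close to the lower limit. *Oasl1* stood at 0.730, 0.260 and 0.572 FPKM in BAT and at 2.65, 0.453 and 3.46 FPKM in WAT. No other member was lower in BAT by 2-fold on day 0.

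The cytosolic sensors were highest in BAT on day 0. *Ddx58* encodes RIG-I, which detects RNA with a 5′ triphosphate, and stood at 16.9, 2.803 and 5.87 FPKM in BAT and at 2.997, 4.62 and 8.15 FPKM in WAT. *Zbp1*, the sensor of Z-form nucleic acids, stood at 18.0, 2.45 and 4.91 FPKM in BAT and at 3.19, 2.99 and 16.8 FPKM in WAT. *Zbp1* had the widest gap of the 32 members between the changes of both cell types, lower by 1.69 in BAT and higher by 2.08 in WAT on day 6 than on day 0. *Ifih1*, which encodes MDA5, the sensor of long double-stranded RNA, ranged from 1.505 to 6.60 FPKM, highest in BAT on day 0.

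The transcription factors of the pathway were highest in BAT on day 0, apart from *Irf7*. *Stat2* stood at 36.1, 4.19 and 6.07 FPKM in BAT and at 7.22, 5.36 and 9.08 FPKM in WAT. Its difference of 2.18 on day 0 and those of *Zbp1* (2.18) and *Ddx58* (2.16) were the 3 largest of the members on that day. *Irf9*, the DNA-binding subunit of ISGF3, stood at 22.9, 5.22 and 9.22 FPKM in BAT and at 13.0, 6.61 and 14.9 FPKM in WAT, with day 4 lowest in both. *Irf7*, the regulator that amplifies type I interferon, stood at 13.9, 7.49 and 11.8 FPKM in BAT and at 4.84, 13.7 and 21.97 FPKM in WAT. It is 1 of the 3 members already at least 2-fold higher in WAT on day 4. *Irf1*, a target of interferon gamma, stood at 15.0, 9.39 and 9.98 FPKM in BAT and at 5.17, 10.1 and 14.1 FPKM in WAT, so BAT and WAT met on day 4 (a difference of -0.10).

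The guanylate-binding proteins are GTPases that attack the vacuoles of intracellular microbes. *Gbp2* stood at 9.12, 1.96 and 8.95 FPKM in BAT and at 3.73, 3.23 and 12.1 FPKM in WAT, and BAT on day 6 was back at its day 0 level (-0.03). *Gbp3* stood at 7.66, 2.501 and 5.38 FPKM in BAT and at 1.91, 4.44 and 13.0 FPKM in WAT. Both genes lie near each other on chromosome 3 (mm9, from 142223016 to 142300972). In both, WAT was higher by over 2-fold on day 6 than on day 0 (1.47 and 2.26 on the log2 scale).

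Among the MHC class I genes, *B2m* and *H2-K1* were more abundant than any interferon-induced member in each library, and *H2-D1* in each but WAT day 0, while *H2-T23* and *Tap1* were below *Bst2* in each. Class I molecules present peptides on the cell surface: H2-K1 and H2-D1 are the classical heavy chains, H2-T23 (Qa-1) is a non-classical one, B2m is their shared light chain and Tap1 is part of the pump that delivers peptides. Summed over the 5 genes, the level was 1643, 1126 and 1681 FPKM in BAT and 1326, 1726 and 2648 FPKM in WAT. Over the 28 interferon-induced members it was 514.2, 123.7 and 255.7 FPKM in BAT and 372.3, 244.1 and 515.7 FPKM in WAT. As a share of the summed FPKM of the library, class I took 0.313% in BAT on day 0 and 0.201% on day 6, and the interferon-induced members 0.0981% and 0.0306%, so whether the class I level in BAT came back by day 6 depends on the scaling.

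*B2m* stood at 1098, 516.2 and 834.7 FPKM in BAT and at 891.0, 899.8 and 1430 FPKM in WAT. BAT was lower on day 4 than on day 0, which was not seen in WAT. The excess of BAT on day 0 (0.30) was lost under median-ratio scaling (-0.01) and larger with the length trend removed (1.37). *H2-K1* stood at 263.2, 373.0 and 492.5 FPKM in BAT and at 233.5, 469.4 and 640.5 FPKM in WAT, higher with each day in both. The small excess of BAT on day 0 (0.17) turned under median-ratio scaling (-0.14) and was larger with the length trend removed (0.65). *H2-D1* stood at 231.5, 209.1 and 312.3 FPKM in BAT and at 169.0, 298.4 and 473.2 FPKM in WAT. *H2-T23* stood at 40.9, 18.2 and 30.8 FPKM in BAT and at 25.4, 36.6 and 76.2 FPKM in WAT, and its difference on day 6 (-1.28) was larger in size than those of *H2-K1* and *H2-D1* (-0.38 and -0.60). *Tap1* stood at 9.48, 9.16 and 10.9 FPKM in BAT and at 7.03, 21.5 and 27.7 FPKM in WAT, so it hardly moved in BAT and was over 2-fold higher in WAT on both later days.

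**Figure D3:**
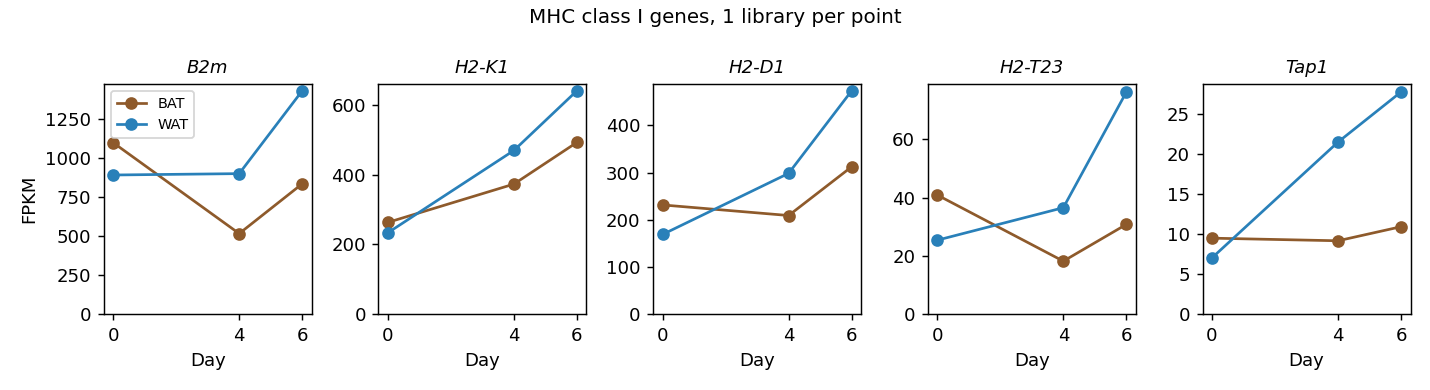
FPKM (vertical axes, from 0, with a scale of their own) of the 5 MHC class I members on days 0, 4 and 6 in BAT (brown) and WAT (blue), 1 library per point. BAT is above WAT on day 0 and below it on days 4 and 6 in each gene, and *B2m* in BAT is at 1098, 516.2 and 834.7 FPKM.

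As a group, the class I genes differed from the other members in size and course, which was not tested. Their median difference between BAT and WAT was 0.38, -0.80 and -0.78 on days 0, 4 and 6, and that of the other 27 tested members 1.25, -0.51 and -0.93. From day 0 to day 4 the class I median was -0.15 in BAT and 0.82 in WAT, and that of the other members -1.86 and -0.11. From day 0 to day 6 it was 0.18 in BAT and 1.48 in WAT, against -1.08 and 1.15. *H2-K1*, *H2-D1* and *Tap1* all lie in the H2 region of chromosome 17 with *H2-T23*, and 4.64% of the 100-base stretches of *H2-D1* and 4.44% of those of *H2-T23* occur in other genes, so part of their reads may belong to related heavy chains.

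From day 0 to day 6, BAT and WAT moved apart in most members. In 25 of the 32, BAT was lower and WAT higher on day 6 compared with day 0, where 23.9% of all tested genes were. In 8, both changes reached 2-fold (1.26% of all tested genes), and these were *Ifit1*, *Ifit3*, *Usp18*, *Mx2*, *Ifi44*, *Oasl2*, *Ddx58* and *Zbp1*. In *Oasl2* BAT was lower by 2.41 and WAT higher by 1.30. In *Ifit1* BAT was lower by 1.12 and WAT higher by 2.43. *Bst2* and *Oas1a* were lower in both cell types, and *Ifi35*, *Rsad2*, *H2-K1*, *H2-D1* and *Tap1* were higher in both.

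**Figure D4:**
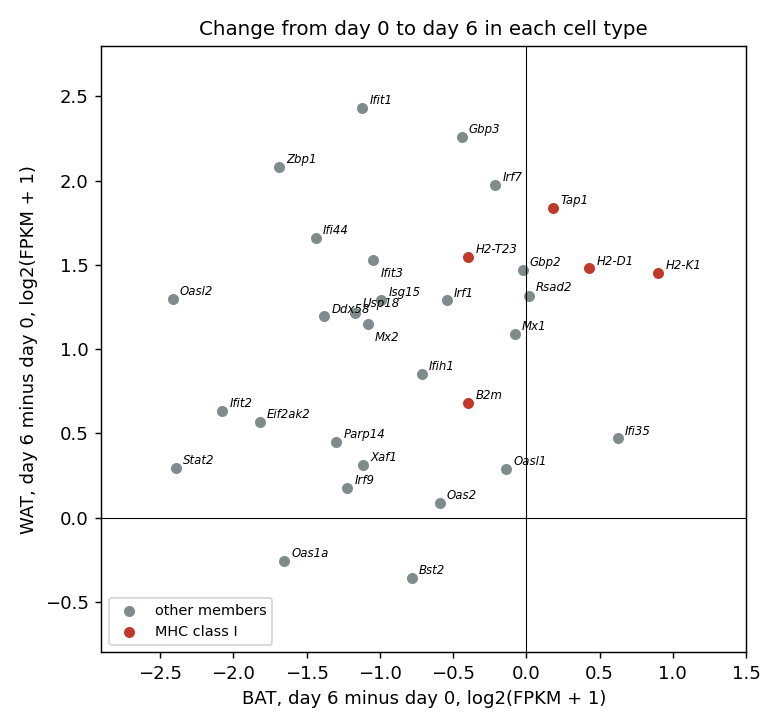
Change from day 0 to day 6 on the log2(FPKM + 1) scale in BAT (horizontal axis) against WAT (vertical axis) for the 32 tested members, each the difference of 2 single libraries, with MHC class I genes in red. The upper left quadrant, lower in BAT and higher in WAT, holds 25 of them, and *Oasl2* is farthest to the left at -2.41.

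Markers of other cells were unequal between the libraries. The summed level of the macrophage list, of which 14 of 16 genes were tested, was 26.7, 81.0 and 109.0 FPKM in BAT and 113.7, 230.5 and 423.4 FPKM in WAT. *Tyrobp*, *Aif1*, *C1qb* and *C1qc* were listed at 0 in BAT on day 0. By the 2-fold rule, 13 of its 14 tested genes were lower in BAT on day 6, when 14 of the 32 members were. On day 0 its sum was also lower in BAT, where the members' median was higher. Class II antigen-presenting cell markers summed to between 7.74 and 17.7 FPKM, those of T, NK and B cells to between 0.189 and 1.74, with *Cd3g*, *Cd3d*, *Nkg7*, *Ncr1* and *Klrb1c* at 0 in every library, and endothelial markers to between 4.76 and 24.4. The part of these cells in the result was not tested.

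Preadipocyte and stromal markers shared with the members the sign of BAT minus WAT, but not the course in WAT. They summed to 7949, 632.5 and 789.6 FPKM in BAT and to 2663, 1188 and 1566 FPKM in WAT, with BAT above WAT on day 0 and below it on day 6 in 7 of 9 (37.6% of all tested genes). *Cd34* and *Thy1* were lower in BAT on day 0. In WAT 7 of the 9 were lower on day 6 than on day 0, as were 6422 of the 14413 tested genes. The median of the 9 was -0.58, where that of the members was 1.21 and that of all tested genes 0.10. *Col1a1*, a collagen of fibroblasts, stood at 4004, 252.6 and 305.7 FPKM in BAT and at 1444, 498.1 and 648.7 FPKM in WAT. The share of undifferentiated cells was not measured, and its part in the result was not tested. Adipocyte markers summed to 475 FPKM in BAT and 1324 FPKM in WAT on day 0 and were at 31320 and 25870 FPKM on day 6. Brown cell markers summed to 45.6, 315 and 138 FPKM in BAT and 8.93, 41.0 and 18.1 FPKM in WAT, and white cell markers to 7.12, 254 and 526 FPKM in BAT and 50.6, 956 and 1139 FPKM in WAT.

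The rest of the pathway was described from 5 lists. Of the ligands and receptors, 6 of 17 genes were tested, and *Ifna2*, *Ifna4*, *Ifng* and *Ifnk* were listed at 0 in every library, while the other ligands reached at most 1.11 FPKM (*Ifna1* in WAT on day 0), with *Ifnb1* at 0.553 FPKM in WAT on day 0, *Ifne* at 0.394 FPKM in WAT on day 4 and *Ifna5* at 0.321 FPKM in BAT on day 0. *Ifnar1*, a chain of the type I receptor, stood at 26.96, 10.7 and 13.6 FPKM in BAT and at 16.03, 7.87 and 13.9 FPKM in WAT. *Ifnar2* stood at 46.9, 29.2 and 50.8 FPKM in BAT and at 43.0, 34.9 and 67.2 FPKM in WAT. Only *Ifngr1*, the ligand-binding chain of the interferon gamma receptor, passed the test against day 0: it rose by 2.15 on the log2 scale (SE 0.25, limma adjusted p = 0.003). It stood at 33.4, 180.0 and 150.9 FPKM in BAT and at 28.3, 141.2 and 98.7 FPKM in WAT. The call was lost without BAT day 4 or WAT day 4, fits in which far fewer of all tested genes passed. *Ifngr2* and *Il10rb*, further receptor chains, stood between 9.96 and 22.8 FPKM and between 8.11 and 19.4 FPKM.

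Of 16 tested genes of interferon signalling, 1 passed in limma against day 0, *Irf4*, which rose and stayed under 10 FPKM (11.3% of all tested genes rose). BAT was 2-fold higher on day 0 in 5 of them (20.7% of all tested genes) and lower on day 6 in 1 (4.09%), and 6 had BAT above WAT on day 0 and below it on day 6 (37.6%). *Jak1*, the kinase shared by all interferon receptors, stood at 143.3, 34.5 and 44.4 FPKM in BAT and at 38.4, 28.4 and 55.2 FPKM in WAT. *Jak2*, the kinase of the interferon gamma receptor, stood at 29.3, 6.48 and 9.04 FPKM in BAT and at 7.55, 4.90 and 8.41 FPKM in WAT. *Socs3*, a feedback inhibitor of cytokine signals, stood at 36.0, 5.44 and 6.95 FPKM in BAT and at 10.98, 3.94 and 11.4 FPKM in WAT. BAT minus WAT was 1.87, 1.83 and 1.63 for these 3 on day 0 and -0.31, 0.09 and -0.64 on day 6. *Irf3* and *Irf5*, factors downstream of the sensors, ranged from 30.6 to 49.8 and from 5.55 to 10.4 FPKM. On day 6 BAT minus WAT was -0.73 for *Irf2bp2* and -0.59 for *Irf2*, and on day 0 it was -0.14 for *Ptpn2*, a phosphatase that restrains the pathway.

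Of 21 tested genes of nucleic acid sensing, 2 fell and 1 rose in limma against day 0, which is no more than the shares of all tested genes (10.6% and 11.3%). *Tmem173*, which encodes STING, the adaptor of DNA sensing, stood at 25.9, 1.74 and 2.70 FPKM in BAT and at 30.6, 2.45 and 3.51 FPKM in WAT. It fell by 3.04 on the log2 scale (SE 0.28, limma adjusted p = 0.002) and was called with each library left out in turn. *Dhx9*, an RNA helicase, fell by 1.27 (SE 0.32), and *Mavs*, the mitochondrial adaptor of RIG-I and MDA5, rose by 1.32 (SE 0.29), but each of these calls was lost in 4 of the 6 fits with 1 library left out. For *Dhx9* these were the fits without BAT day 0, BAT day 4, BAT day 6 and WAT day 4, and for *Mavs* those without BAT day 4, WAT day 0, WAT day 4 and WAT day 6. *Ifi204* stood at 48.8, 12.4 and 16.8 FPKM in BAT and at 19.4, 26.1 and 46.4 FPKM in WAT, with BAT minus WAT at 1.29 on day 0 and -1.41 on day 6. Its relatives *Ifi205* and *Mnda* had -1.63 and -1.23 on day 6. *Adar*, the editor of double-stranded RNA, was higher in BAT on day 0 (1.88), while *Rnaseh2a* and *Rnaseh2c*, subunits of RNase H, were lower (-1.50 and -1.94). *Myd88*, the adaptor of Toll-like receptors, was level on day 6 (-0.05). BAT lay above WAT on day 0 and below it on day 6 in 13 of the 21 (37.6% of all tested genes).

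A list of 62 other tested interferon-induced genes had the members' pattern in part. BAT lay above WAT on day 0 and below it on day 6 in 40 of them, where 37.6% of all tested genes did, and the median difference was 0.61, -0.29 and -0.65 on days 0, 4 and 6. BAT was 2-fold higher in 24 on day 0 (20.7% of all tested genes) and 2-fold lower in 18 on day 6 (4.09%). *Slfn5*, a Schlafen gene, had the largest difference of the list on day 0, at 97.6, 5.50 and 5.85 FPKM in BAT and 6.71, 5.39 and 17.2 FPKM in WAT. *Trim30a* stood at 11.6, 1.94 and 2.15 FPKM in BAT and at 1.79, 1.87 and 3.67 FPKM in WAT. Against day 0, 8 fell and 2 rose in limma (10.6% and 11.3% of all tested genes). *Plscr1*, a phospholipid scramblase, fell by 2.52 (SE 0.35), *Apobec3*, a cytidine deaminase, by 2.29 (SE 0.44) and *Ube2l6*, the conjugating enzyme for ISG15, by 1.84 (SE 0.32). *Ifi27l1* rose by 1.78 (SE 0.37) and *Isg20*, an exonuclease, by 1.31 (SE 0.26). Each call was lost without BAT day 4 and without WAT day 4, where far fewer of all tested genes passed. It was also lost without WAT day 0 for *Apobec3*, without BAT day 0 for *Ube2l6*, and without BAT day 6 or WAT day 6 for *Ifi27l1* and *Isg20*. *Irgm2*, an immunity-related GTPase, was higher in BAT on day 0 (1.73), *Ly6c1* and *Ifi203* were lower on day 6 (-1.89 and -1.64), and *Ifi27l2a* was slightly higher on day 6 (0.17).

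*Apobec3* went against the pattern, with 20.9, 6.49 and 6.76 FPKM in BAT and 89.1, 14.8 and 6.35 FPKM in WAT. *Ifitm2* and *Ifi30*, which also were higher in WAT on day 0, stood at 309.8 and 35.3 FPKM in BAT on that day and at 719.3 and 93.2 FPKM in WAT. *Ly6a*, the stem cell antigen Sca-1, was level on day 0 (600.0 and 600.2 FPKM) and lower in BAT on day 6 (133.0 and 375.8 FPKM).

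Of 27 further tested genes of class I presentation, 5 rose and 1 fell in limma against day 0 (11.3% and 10.6% of all tested genes). BAT lay above WAT on day 0 and below it on day 6 in 11, near the share of all tested genes (37.6%). *Psmb9*, a subunit of the immunoproteasome, rose by 1.95 (SE 0.29), and stood at 1.56, 5.48 and 11.8 FPKM in BAT and at 2.84, 11.97 and 19.2 FPKM in WAT. *H2-Q10*, a secreted heavy chain, rose by 1.86 (SE 0.39). *H2-Ke6*, which rose by 1.81 (SE 0.35), encodes a hydroxysteroid dehydrogenase and not a class I molecule. *Pdia3*, a chaperone of the peptide loading complex, fell by 1.36 (SE 0.27). Each of these calls was lost without BAT day 4 and without WAT day 4, where far fewer of all tested genes passed. The call was also lost without WAT day 0 or WAT day 6 for *H2-Q10*, without BAT day 6 for *H2-Ke6*, and without BAT day 6 or WAT day 6 for *Pdia3*. *H2-Q4*, *H2-Q7* and *H2-Q8*, which share sequence with other heavy chains, were lower in BAT on day 6 by 1.38, 1.62 and 1.97. *Psme1* and *Psme2*, the proteasome activators, were lower in BAT on day 0 (-1.45 and -1.12) and slightly higher on day 6 (0.14 and 0.14). *Erap1*, which trims peptides, *Canx*, a chaperone, and *Mr1*, a class I-like molecule, were higher in BAT on day 0 (1.39, 1.16 and 1.03). *Cd1d1* and *Fcgrt*, further class I-like genes, were slightly higher in BAT on day 6 (0.29 and 0.16).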

How the data were processed

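The RNA-seq data comprised 6 libraries, 1 for each of BAT and WAT at day 0, day 4 and day 6. The authors prepared directional libraries, aligned the paired reads to mm9 with TopHat2 2.0.11 and deposited FPKM per gene computed with Cufflinks 2.1.1, per the submitters' processing notes and the study's methods. Whether strand was used in the quantification is not given in the sources used here. The columns named SUB were taken as WAT, the inguinal subcutaneous cells. The table holds 37841 entries, and where a symbol was repeated the entry of highest mean FPKM was kept, which left out 3376.

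The members, the gene lists and the rules were chosen with earlier results of these data known. Genes that reached an FPKM of 1 in any library (14413) were transformed as log2(FPKM + 1). limma 3.58.1 in R 4.3.3 fitted terms for cell type and day with a variance trend, on 2 residual degrees of freedom and 4.26 prior ones. P-values were adjusted by Benjamini-Hochberg with a threshold of 0.05, and the fit was tested on simulated data. With 1 library per condition, the residual is the departure from additive effects of cell type and day. P-values are set against that departure and not against a spread between replicates. Pairs of libraries were compared by a 2-fold rule with no test. Members and list genes with at least 10 FPKM in a library are named: all such members, up to 3 called genes per list and direction, and the 3 largest differences between BAT and WAT each way on days 0 and 6. Lower members are given by their range. *Irf4*, *Ifna1* and genes at 0 were named after their values were seen.

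Transcript lengths and mm9 coordinates come from GENCODE M1 (97.9% of IDs matched), and promoters from RefSeq. Depth was estimated from low FPKM values, and 86.4% to 92.3% of these differed from whole fragments by less than 0.1. Fragment numbers are approximate. Alternatives were pseudocounts of 0.1 and 5, other filters, median-ratio and TPM scaling, summed entries, no variance trend, 1.5-fold and 4-fold rules, the length trend removed and each library left out. Members with at least 20 fragments in every library, and those without MHC class I genes, were added after seeing the data. A value with no replicates was counted as moved when it changed by more than 1.5 times. Python 3.11.15 with statsmodels 0.14.6, scipy 1.17.1 and pandas 2.3.3 served for the rest.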

Additional observations from a re-analysis of the deposited data

Results flagged for a closer look

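BAT and WAT took opposite directions from day 0 to day 6 in single libraries. The median change of the members was 2.09 apart on the log2 scale, BAT minus WAT (-2.09). In 8 genes both changes reached 2-fold in opposite directions, and BAT minus WAT of the change was -3.55 for *Ifit1*, -2.57 for *Ifit3*, -2.39 for *Usp18*, -2.23 for *Mx2*, -3.10 for *Ifi44*, -3.71 for *Oasl2*, -2.57 for *Ddx58* and -3.77 for *Zbp1*. The members were put together for this reversal, and with 1 library per condition the difference between the cell types was not tested. *Ifi44* was listed at 0 in WAT on day 0, and its value depends on the pseudocount.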

How the results depend on the processing

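No paired analysis was possible because each condition has 1 library and the labels give no replicate numbers. Of the summary results under the alternatives, 118 values stayed within the limits of the main value, 42 moved and 2 changed sign, and of the values of single members 436 stayed, 128 moved and 12 changed sign. Under median-ratio scaling the median of all tested genes for BAT minus WAT shifted by -0.21, -0.14 and 0.10 on days 0, 4 and 6, and under TPM by 0.59 on day 0. Members called against day 0 numbered 0 with a pseudocount of 5, TPM, no filter or a mean FPKM of at least 5, and 0 to 16 with 1 library left out. The top of that range came from the fit without WAT day 0, where BAT is the only day 0 library. The members were grouped by their day 0 difference, so this count restates that choice and is not taken as a result. With a pseudocount of 0.1, 11 members were 2-fold lower in BAT on day 4 and 7 higher in WAT on day 4. With a pseudocount of 5, the 2-fold counts were 6 higher in BAT on day 0, 2 and 7 lower on days 4 and 6, 6 lower in BAT on day 6 than day 0, and 1 and 10 higher in WAT on days 4 and 6 than day 0. The medians were then 0.61, -0.22 and -0.54 for BAT minus WAT on days 0, 4 and 6, -0.99 and -0.47 for BAT and -0.0182 and 0.60 for WAT on days 4 and 6 against day 0. Median-ratio scaling gave 8 members lower in BAT on day 4, 9 lower in BAT on day 6 than day 0 with a median of -0.57, and a WAT median of 0.0757 on day 4. TPM gave 23 members lower in BAT on day 6 than day 0 with a median of -1.56, a BAT minus WAT median of 1.71 on day 0, and a WAT median of 0.0514 on day 4. A 1.5-fold rule gave 13 and 24 lower in BAT than WAT on days 4 and 6 and 7 higher in WAT on day 4. A 4-fold rule gave 4 higher in BAT on day 0, 0 and 2 lower on days 4 and 6, 11 and 3 lower in BAT on days 4 and 6 than day 0, and 0 and 3 higher in WAT. The WAT median on day 4 was -0.0706 with at least 20 fragments and -0.11 without MHC class I genes. For single members, BAT minus WAT changed sign on day 0 under median-ratio scaling for *Rsad2* (-0.0437), *Oas1a* (-0.24), *B2m* (-0.0091) and *H2-K1* (-0.14) and on day 4 for *Eif2ak2* (-0.12). Under TPM it changed sign for *Bst2* (0.29) and *Ifi35* (0.23) on day 0 and *Parp14* (0.000814) on day 4, and without the length trend for *Rsad2* (-0.33), *Bst2* (0.74) and *Ifi35* (0.24) on day 0 and *Eif2ak2* (-0.0575) on day 4. The cause was not tested. The WAT day 0 library is the shallowest, and low members there rest on few fragments. The BAT day 0 library carries most of the trend with transcript length.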
